A study of Homo sapiens with 28 samples.

Results

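DUSP2 and DUSP5 encode MAP kinase phosphatases, and both were followed in Jurkat, a line of human T cell leukaemia, over the first 4 h of activation. The 2 genes were taken by symbol from a deposited table of 7485 genes, and each had 1 entry. They were chosen by their mean values in total and labelled RNA over these hours, so those values are given here as a description and were not tested. Unactivated cells were compared with cells given phorbol ester (PMA, 0.5 µg/ml), which turns on protein kinase C, together with the lectin phytohaemagglutinin (PHA, 2 µg/ml), which cross-links surface receptors including the T cell receptor, for 1, 2, 3 or 4 h. All groups share the line and its RPMI1640 medium, and 1 line stands for T cells throughout. At each time total RNA was sequenced beside RNA that had taken up 4-thiouridine, a uridine analogue that marks newly made transcripts and lets them be pulled down on beads. How long the cells were labelled is not stated in the labels. The 28 samples made 10 groups of 3 biological replicates, except for both kinds of RNA at 1 h with 2 each.

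MAP kinases are switched on by phosphorylation of a threonine and a tyrosine in one loop, and dual specificity phosphatases remove both groups. DUSP2, also called PAC-1, is a nuclear phosphatase found in activated lymphocytes. DUSP5 is also nuclear, acts on ERK and holds ERK in the nucleus. Transcription of both genes is known to be started by the kinase cascade whose end product they inactivate, so they are classed as feedback inhibitors.

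All values are the authors' group means with the deposited SD on a normalised scale near CPM, reads scaled to a common library size. Single samples are not in the table, but a mean and an SD of 2 samples give back both values. In total RNA at 1 h, all of the 3166 genes with means under 50 came back as whole reads in both samples, within 0.02 of a read. Read as CPM, these values put the libraries at 1.12e+07 and 1.11e+07 reads. The depth of the other groups is unknown. Of 10 T cell marker genes, 6 were in the table (CD3D, CD3G, CD247, CD28, LCK and ZAP70). Their summed total value ran from 1820 to 2143 over the 5 times. Of 5 B cell and 5 fibroblast markers 0 were listed, and of 5 myeloid markers AIF1 alone, at 85.2 to 99.8.

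Sequences of the 3' untranslated region and of the promoter are shown first. They were searched for motif letters alone, and their part in turnover or induction was not tested. In GENCODE release 29 (GRCh38), DUSP2 lies on the minus strand of chromosome 2 at 96143166 to 96145440, and DUSP5 on the plus strand of chromosome 10 at 110497838 to 110511544. Both have 4 exons, with transcripts of 1688 and 2557 bases. AU-rich elements of the letters ATTTA in the 3' untranslated region are binding sites of proteins, HuR among them, that set mRNA lifetime. Over the 657 bases of the DUSP2 3' untranslated region there were 3 such matches on the transcript strand, or 4.57 per kb. That density was above the 86.1% of 7262 genes of the table with lower values, whose median was 1.99. By number of matches DUSP2 was above 51.5% of genes, whose median was 2. The 1118 bases of the DUSP5 region held 0, whereas 74.7% of the genes held at least 1. The longer element TTATTTATT was in neither gene and in 9.21% of genes. The matches in DUSP2 all lay in its last exon, and are shown in windows of 30 bases with the element in capitals.
DUSP2, chr2:96143273-96143302, minus strand: tgctcagctgacATTTAacactccctcccc
DUSP2, chr2:96143207-96143236, minus strand: ttagcactttatATTTAtacagaacattca
DUSP2, chr2:96143166-96143195, minus strand: taaaatattgttatATTTAaaaaacaacaa

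The 250 bases before the start of DUSP2 are given from RefSeq (GRCh38.p14). The region is chr2:96145441-96145690 on the minus strand, and capitals mark an E box, CACGTG, that begins at position -113 from the start.
DUSP2 promoter: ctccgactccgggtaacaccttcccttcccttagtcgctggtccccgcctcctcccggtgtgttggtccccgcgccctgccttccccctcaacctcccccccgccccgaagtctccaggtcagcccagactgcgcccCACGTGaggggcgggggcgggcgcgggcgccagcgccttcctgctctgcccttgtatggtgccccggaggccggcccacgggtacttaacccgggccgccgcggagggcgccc
Motifs were searched on both strands of this window and of all 35116 promoters in the RefSeq table. The E box was found in 6.34% of them. The GC box GGGCGG had 3 matches in DUSP2, which begin at -150, -105 and -99, and occurred in 42.6% of promoters. The letters of the AP-1 site TGANTCA, the cyclic AMP response element TGACGTCA, the ETS site CCGGAAG and the EGR site GCGTGGGCG were not in this window, nor was the CArG box. They occurred in 6.57%, 1.65%, 8.52%, 0.72% and 1.16% of promoters. The RefSeq promoters used here held 0 entries for DUSP5, so its promoter is not given.

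DUSP2 was already made before activation and reached its highest value at 2 h. Its mean total value was 19.2 ± 2.90 (SD, n = 3) in unactivated cells. In bulk RNA, more cells with DUSP2 RNA and more of it per cell cannot be told apart, here and below. At 1 h the 2 samples had 464 and 579, from 5183 and 6395 reads, a mean of 521 ± 81.3. At 2 h it was 936 ± 28.2, at 3 h 574 ± 44.9 and at 4 h 213 ± 16.5 (SD, n = 3 each). The order from low to high was therefore 0 h, 4 h, 1 h, 3 h and 2 h, and of these neighbours 1 h and 3 h overlapped within 1 SD. The level at 4 h was 22.8% of that at 2 h and 11.1 times that of unactivated cells.

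Labelled DUSP2 was already near its highest mean at 1 h. Its mean was 71.1 ± 16.2 (SD, n = 3) before activation. The 2 samples at 1 h had 1910 and 2133, a mean of 2022 ± 158. At 2 h it was 2181 ± 259, at 3 h 1447 ± 121, and at 4 h 374 ± 59.5. The bands of 1 SD at 1 h and 2 h overlapped, and 1 h stood at 92.7% of the 2 h mean. In total RNA the 1 h mean was 55.7% of the 2 h mean.

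DUSP5 started from a low level and was highest 1 h later than DUSP2. Its mean total value was 3.10 ± 0.967 (SD, n = 3) in unactivated cells. The 2 samples at 1 h had 22.5 and 28.8, from 251 and 318 reads, a mean of 25.6 ± 4.47. It was 268 ± 31.8 at 2 h, 521 ± 18.4 at 3 h and 243 ± 15.6 at 4 h (SD, n = 3 each). The order from low to high was 0 h, 1 h, 4 h, 2 h and 3 h, and 4 h and 2 h overlapped within 1 SD. At 4 h the mean was 46.7% of that at 3 h.

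Labelled DUSP5 followed the same order of hours. It was 4.36 ± 0.728 (SD, n = 3) before activation, and the 2 samples at 1 h had 88.0 and 98.5, a mean of 93.3 ± 7.37. It was 747 ± 75.7 at 2 h, 1016 ± 108 at 3 h and 326 ± 17.9 at 4 h. No neighbouring hours in this order overlapped within 1 SD. The 2 h mean was 73.6% of the 3 h mean in labelled RNA and 51.5% in total RNA.

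**Figure D1:**
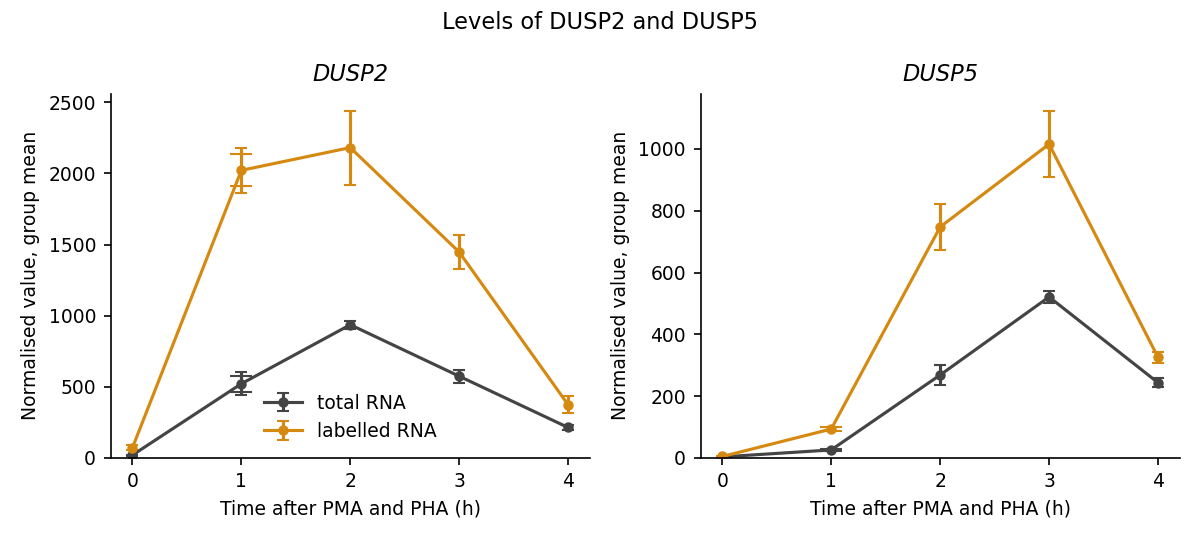
Group means of DUSP2 and DUSP5 (vertical axis, normalised value near CPM, from 0) against hours after PMA and PHA, in total RNA (grey) and labelled RNA (orange). Bars are the deposited SD over 3 samples, or 2 at 1 h where short dashes mark the recovered values. DUSP2 was highest at 2 h, with 936 in total and 2181 in labelled RNA, and DUSP5 at 3 h, with 521 and 1016.

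Against the whole table both genes stood at or near the top of the changes. On the log2(value + 1) scale, which understates changes of low genes such as DUSP5, total DUSP2 differed from unactivated cells by 4.69 ± 0.20 (SE) at 1 h. Its differences were 5.54 ± 0.12 at 2 h, 4.83 ± 0.14 at 3 h and 3.41 ± 0.14 at 4 h. Those values ranked 1, 2, 4 and 5 from the top of 7485 genes, whose median lay between 0.02 and 0.07. Total DUSP5 differed by 2.70 ± 0.26 at 1 h, which ranked 7. With 6.04 ± 0.22 at 2 h, 6.99 ± 0.20 at 3 h and 5.90 ± 0.20 at 4 h it ranked 1 at each of these hours. With 5 added to the values in place of 1, total DUSP2 stood above DUSP5 at 2 h (5.28 against 5.08). As ratios of the means, DUSP5 was 8.27, 86.6, 168 and 78.6 times its level in unactivated cells. That level, 3.10, ranked 7424 from the top of 7485 genes, where the lowest gene mean was 1.10, so these ratios rest on a value near the floor.

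In labelled RNA the differences of DUSP2 were 4.81 ± 0.20 at 1 h, 4.92 ± 0.21 at 2 h, 4.33 ± 0.20 at 3 h and 2.38 ± 0.23 at 4 h, with ranks of 2, 4, 4 and 18. Those of DUSP5 were 4.14 ± 0.14, 7.13 ± 0.14, 7.57 ± 0.14 and 5.93 ± 0.12, with ranks of 3, 1, 1 and 1. The labelled 3 h mean of DUSP5 was 233 times that of unactivated cells, where it ranked 7462 from the top of 7485 genes. Genes that were at least 1 above unactivated cells at some hour numbered 238 in total RNA. Of these 6.72% were highest at 2 h, as DUSP2 was, 32.8% at 3 h, as DUSP5 was, and 58.8% at 4 h.

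**Figure D2:**
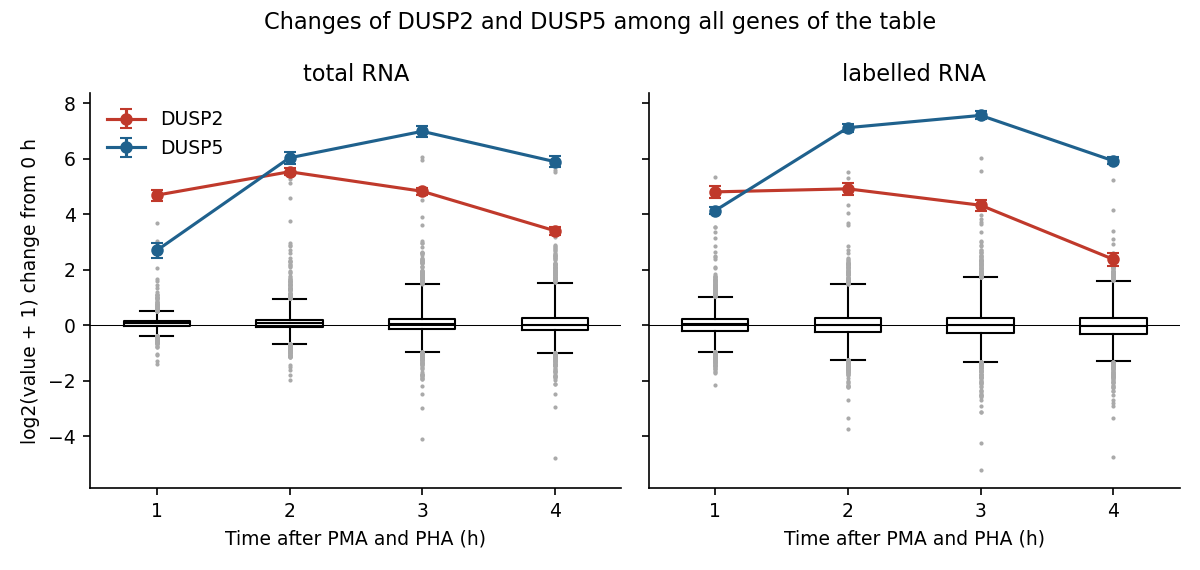
Change from unactivated cells on the log2(value + 1) scale (vertical axis) at each hour for DUSP2 (red) and DUSP5 (blue) with their SE, over boxes of all 7485 genes with the median, quartiles and whiskers at the 1st and 99th percentile and grey points beyond them. On this scale DUSP5 lay above every other gene at 2, 3 and 4 h in both kinds of RNA, up to 7.57.

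From hour to hour DUSP2 and DUSP5 differed in direction from 2 h to 3 h alone. From 1 h to 2 h total DUSP2 was higher by 0.84 ± 0.16 (log2, SE) and total DUSP5 by 3.34 ± 0.20. From 2 h to 3 h DUSP2 was lower (-0.70 ± 0.07) and DUSP5 higher (0.96 ± 0.10). From 3 h to 4 h both were lower, DUSP2 by -1.42 ± 0.09 and DUSP5 by -1.09 ± 0.06. The first of these was the lowest of all genes over that hour and the second the 6th lowest. In labelled RNA the same interval gave -1.95 ± 0.15 for DUSP2 and -1.64 ± 0.10 for DUSP5, the 3rd and 6th lowest.

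Levels of the 2 genes can be set side by side only per length of transcript. Total DUSP2 per kb was 11.4 ± 1.72 (SD) before activation against 1.21 ± 0.378 for DUSP5, a ratio of 9.39. That ratio was 30.8 at 1 h, 5.29 at 2 h, 1.67 at 3 h and 1.33 at 4 h. In the last hour DUSP2 had 126 ± 9.76 and DUSP5 95.2 ± 6.09 per kb in total RNA. In the authors' deposited table the mean RPKM in total RNA was 364 for DUSP2 and 134 for DUSP5, against a median of 54.5 over all genes.

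Labelled RNA was next set against total RNA, which places a gene above or below the typical gene and does not give an absolute share of new RNA. The log2 difference of labelled and total DUSP2 was 1.84 ± 0.22 (SE) before activation, higher than 98.1% of genes, and 1.95 ± 0.18 at 1 h. It was 1.22 ± 0.10 at 2 h, 1.33 ± 0.10 at 3 h and 0.81 ± 0.15 at 4 h, the last above 78.7% of genes. DUSP5 started close to the typical gene at 0.39 ± 0.23, where the median of all genes was 0.15. It stood at 1.82 ± 0.19 at 1 h, above 98.2% of genes, and then at 1.48 ± 0.13, 0.96 ± 0.09 and 0.42 ± 0.07 at 2, 3 and 4 h. Before activation the bands of 1 SD of the 2 genes did not overlap, and at 1 h both lay far above the median of 0.11.

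The authors' deposited table also gives decay rates, which are built from the same means. To get such a rate, 0.266 times the labelled value is taken from the total value, the remainder is divided by the total value 1 h earlier, and the natural log is taken. The rate of unactivated cells uses their own total as the divisor. Solved for the labelled scale, 100% of the authors' deposited rates gave 0.266 within a relative tolerance of 0.001. That tolerance is on the scale and not on the rates, and 0.266 was itself the median of these solutions. More negative values stand for faster loss. By this scale the labelled part of DUSP2 was 98.5% of its total before activation and 103% at 1 h. The deposited table therefore gives DUSP2 no rate at 1 h, as for 138 genes, and a rate of -4.21 ± 18.2 (SD) before activation, whose SD exceeds its size.

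At later hours the authors' deposited table gives DUSP2 rates of -0.38 ± 0.26 at 2 h, -1.60 ± 0.29 at 3 h and -1.62 ± 0.22 at 4 h. Medians over all genes in the deposited table were -0.33, -0.36 and -0.36. The unlabelled remainder of DUSP2 was 0.682 times the total of the hour before at 2 h, and 0.202 and 0.198 times it at 3 h and 4 h. For DUSP5 the deposited table gives -0.47 ± 0.13 before activation and -1.35 ± 6.03 at 1 h, where the scaled labelled part was 96.9% of the total. It then gives 1.00 ± 0.57 at 2 h, -0.07 ± 0.18 at 3 h and -1.20 ± 0.11 at 4 h.

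The deposited rate of DUSP5 at 2 h was the highest of 7351 genes, and 137 genes (1.86%) had a value above 0. A value above 0 means that the computed unlabelled remainder, 69.4, was larger than all DUSP5 RNA of the hour before, 25.6. Rates of this formula therefore do not read as loss alone for DUSP5 at that hour. The T scores of the rate change in the authors' deposited table were -0.28, 4.34, 3.12 and -7.43 for DUSP5 at 1, 2, 3 and 4 h. The score at 4 h was the 3rd lowest of 7264 genes. These scores come from the means by which the genes were chosen, so they are given as a description and not as a test. The one at 1 h rests on a rate with an SD of 6.03. For DUSP2 the deposited table gives 0.365, 0.249 and 0.247 at 2, 3 and 4 h. These are set against its rate before activation of -4.21 ± 18.2 (SD). With so wide an SD, such small scores cannot tell a changed rate of DUSP2 from an unchanged one.

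**Figure D3:**
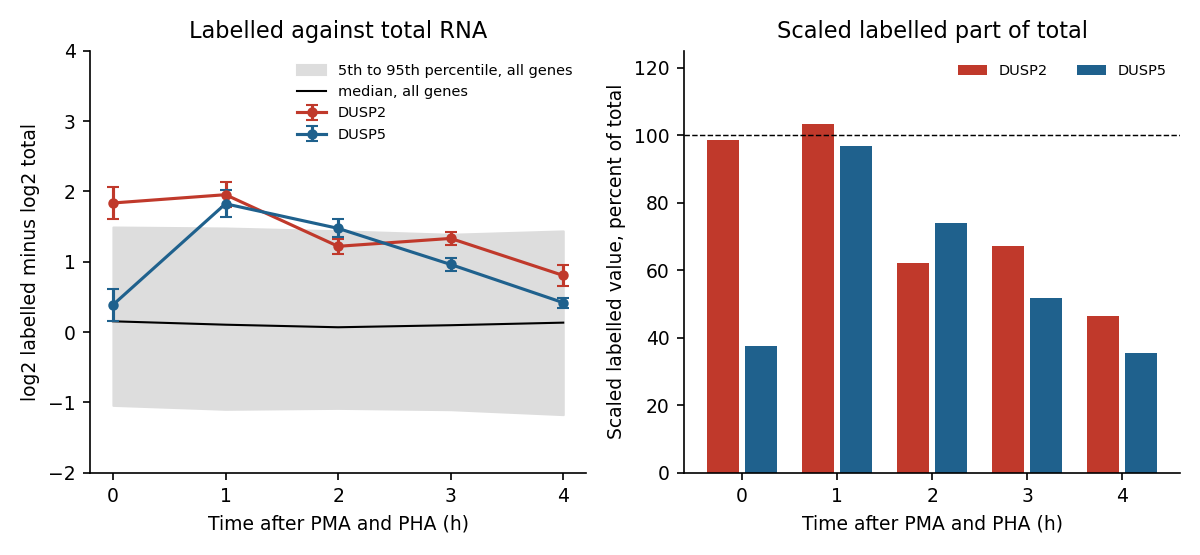
Left, log2 labelled minus log2 total value (SE bars) by hour for DUSP2 (red) and DUSP5 (blue), with the median and the 5th to 95th percentile of all genes (line and grey band). Right, labelled value times the scale in the deposited decay rates, as a percent of the total value, with a dashed line at 100. DUSP5 went from 37.5% before activation to 96.9% at 1 h, while DUSP2 was at 98.5% and 103%.

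HuR, the RNA-binding protein encoded by ELAVL1, stabilises many mRNAs with U-rich elements. Its scores were not used to choose the genes, and they have no replicates in the table. LOD scores in the authors' deposited table, higher for more likely binding, were at hand for 5017 genes at 0 h and 4 h. DUSP2 had -9.36 at 0 h and -8.57 at 4 h, close to the medians of -9.23 and -8.70. DUSP5 had -10.3 at 0 h, below the median, and -0.86 at 4 h, above 90.0% of genes though still negative. Its difference of 9.45 ranked 290 of 5017 from the top, against 0.79 for DUSP2 and a median of 0.88.

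Among 29 genes whose total RNA was at least 2 above unactivated cells at 4 h on the log2 scale, the median score difference was 3.51, and DUSP5 ranked 3 and DUSP2 23. The part that RNA level plays in these scores was not tested. The summary call of HuR binding in the authors' deposited table was yes for DUSP5 and no for DUSP2, with yes for 11.6% of genes. Of the 584 genes called yes, 2 had a lower score than DUSP5 at 0 h and 134 had a lower one at 4 h, where their median was 0.85. Both genes were non-targets in the other calls of the deposited table, by iCLIP and by 3' untranslated region, which were positive for 19.4% and 61.0% of genes.

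**Figure D4:**
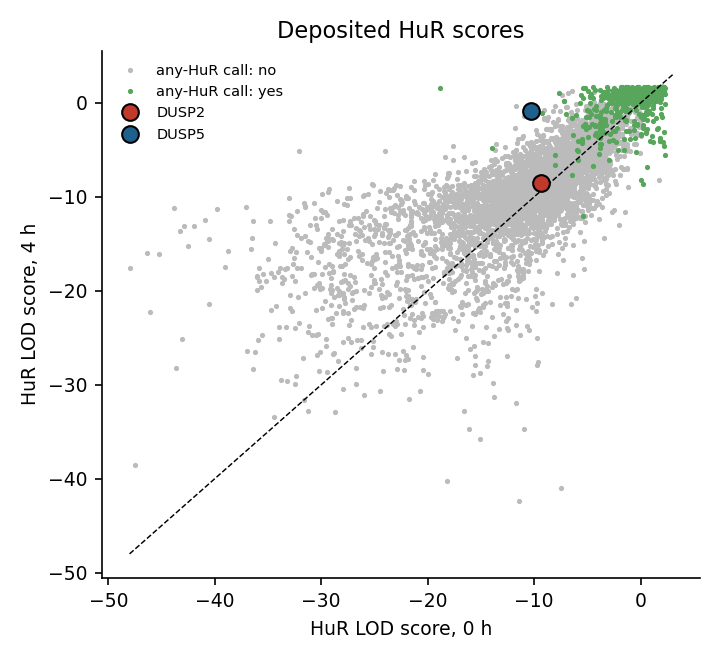
Deposited LOD scores of HuR binding at 0 h (horizontal) and 4 h (vertical) for 5017 genes, with the summary call in green (yes) and grey (no) and the line of equal scores dashed. DUSP5 (blue) lay far above the line, at -10.3 and -0.86, and DUSP2 (red) near it, at -9.36 and -8.57.

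The genes most like each phosphatase were taken by Pearson r over its 8 log2 changes (4 hours, total and labelled), among the 238 genes named above. These 8 values share the samples of unactivated cells, so r is a description of shape. KLF10, a transcription factor of the TGF-beta response, was closest to DUSP2 (r = 0.956) and also close in size, with a root mean square difference of 0.58. Total KLF10 was 7.70 ± 2.39 before activation, 305 ± 18.0 at 2 h and 78.4 ± 1.54 at 4 h (SD, n = 3 each). It was followed by INSIG1, which restrains sterol synthesis (0.895), and FOSL2, an AP-1 subunit (0.866). After them came TGIF2, a homeodomain repressor (0.862), and CD83, a lymphocyte activation marker (0.839). INSIG1, FOSL2, TGIF2 and CD83 rose by at most 1.44, 1.54, 1.29 and 3.77, against up to 5.54 for DUSP2. Labelled INSIG1 was below unactivated cells at 3 h (-0.47) and 4 h (-1.57), and labelled FOSL2 at 4 h (-1.27). Labelled DUSP2 was above them at these hours (4.33 and 2.38). TGIF2 and CD83 were above unactivated cells at every hour in both kinds of RNA.

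The shape of DUSP5 was nearest to that of the SRC family kinase gene YES1 (r = 0.966), whose changes were far smaller, up to 1.72. Next came IL27RA, an interleukin receptor (0.960), PRDM1, the repressor BLIMP1 (0.959), and PDGFA, a growth factor chain (0.939). NAB1, a corepressor of EGR factors, had 0.938. PDGFA came closest in size, with a root mean square difference of 1.61. Its total value was 1.60 ± 0.231 before activation, 176 ± 9.37 at 3 h and 124 ± 6.83 at 4 h (SD, n = 3 each). Total NAB1 was 82.3 ± 5.15 before activation, 1240 ± 119 at 3 h and 565 ± 37.4 at 4 h. Between DUSP2 and DUSP5 themselves r was -0.05.

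The other genes of the pathway were tested with limma across the whole table, each hour against unactivated cells. Of 111 listed genes besides DUSP2 and DUSP5, 55 were in the table. All lists, here and below, were drawn up with earlier results of these data known. Their counts are therefore a description, and an excess over all genes was not tested. In total RNA 7 were called higher and 0 lower at 1 h, where 0.788% and 0.147% of all genes were called. At 2 h 19 were higher and 2 lower (9.71% and 3.58% of all genes), at 3 h 23 and 6 (18.9% and 10.9%), and at 4 h 21 and 6 (21.4% and 14.5%). When only the groups compared were fitted, 124 genes of the table were called higher and 37 lower in total RNA at 1 h in place of 59 and 11, and 148 and 80 in labelled RNA in place of 314 and 154. With median centring the counts in total RNA at 1 h were 39 and 17. With median centring the percent of called genes that were higher was 69.6 in place of 84.3 at 1 h and 51.0 in place of 59.6 at 4 h. With quantile normalisation it was 71.7 and 48.8. In labelled RNA 12 were higher and 0 lower at 1 h, where 4.2% and 2.06% of all genes were called. At 2 h 17 were higher and 9 lower (12.3% and 9.26% of all genes), at 3 h 16 and 8 (13.8% and 11.4%), and at 4 h 16 and 9 (13.7% and 13.8%). Quantile normalisation took the labelled split at 1 h from 67.1% to 56.8% higher.

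Among typical MAP kinase phosphatases, only DUSP1 and DUSP7 were in the table besides the 2 genes, and 0 of these 2 were called at any of the 4 hours in either kind of RNA. DUSP1, a phosphatase of p38, JNK and ERK, had a total value of 3.67 ± 0.370 (n = 3) before activation and 6.80 ± 1.01 (n = 2) at 1 h. This was a log2 change of 0.74 ± 0.21 (adjusted p = 0.143 by limma, unadjusted 0.00222). At 4 h its labelled value was 5.45 ± 2.20 against 10.1 ± 3.40 (adjusted p = 0.051 by limma), and with a constant prior variance that p was 0.0405. DUSP7, a cytoplasmic ERK phosphatase, had 13.4 ± 1.78 in total RNA of unactivated cells against 13.5 ± 0.937 at 1 h (adjusted p = 0.994 by limma). At 4 h its total value was 10.8 ± 1.18 (-0.29 ± 0.14, adjusted p = 0.107 by limma). A further list of dual specificity phosphatases had 9 in the table. They were atypical ones (DUSP3, DUSP11, DUSP12, DUSP14 and STYX), the slingshots SSH1 and SSH2, and PTP4A1 and PTP4A2. Of these 9, 0 were called at 1 h in total and labelled RNA. At 4 h 1 was higher and 2 lower in total RNA (21.4% and 14.5% of all genes), and 0 higher and 2 lower in labelled RNA (13.7% and 13.8%). At 2 h 1 was higher and 0 lower in total RNA (9.71% and 3.58% of all genes), and 1 higher and 4 lower in labelled RNA (12.3% and 9.26%). At 3 h the counts were 1 and 1 (18.9% and 10.9%), and 1 and 2 (13.8% and 11.4%). Their median change at 4 h in total RNA was -0.09 against 0.02 for all genes. Labelled DUSP3, which also acts on ERK and JNK, fell from 29.9 ± 10.3 to 15.1 ± 2.69 at 4 h (-0.94 ± 0.28, adjusted p = 0.00968 by limma). Labelled SSH1, a cofilin phosphatase, fell from 35.7 ± 5.87 to 17.7 ± 3.76 at 2 h (-0.97 ± 0.23, adjusted p = 0.00194 by limma), and had 32.6 ± 1.68 at 3 h and 35.3 ± 3.96 at 4 h, without a call. Labelled DUSP11, an RNA phosphatase, rose from 51.0 ± 18.9 to 78.1 ± 10.9 at 3 h (0.60 ± 0.20, adjusted p = 0.0193 by limma), without a call when only these groups were fitted (0.0584, range over alternatives 0.0157 to 0.0584).

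The ERK cascade and the stress MAP kinases hold the substrates of these phosphatases. Of 16 genes of the ERK cascade, 0 were called at 1 h in total RNA (0.788% of all genes higher and 0.147% lower). At 4 h 4 were higher and 1 lower (21.4% and 14.5% of all genes), with a median of 0.14 against 0.02. In labelled RNA 1 was higher at 1 h (NRAS, a RAS GTPase), where 4.2% of all genes were. At 4 h 4 were higher and 2 lower in labelled RNA (13.7% and 13.8% of all genes). With quantile normalisation, or with only the groups compared in the fit, 0 were called higher in labelled RNA at 1 h, and the latter fit called 1 lower at 4 h. At 2 h 2 were higher and 1 lower in total RNA (9.71% and 3.58% of all genes), and 3 higher and 1 lower in labelled RNA (12.3% and 9.26%). At 3 h 4 were higher and 1 lower in total RNA (18.9% and 10.9% of all genes), and 3 higher and 1 lower in labelled RNA (13.8% and 11.4%). The cascade was not tested as a set. RASGRP1, which loads RAS after diacylglycerol or phorbol ester, fell in labelled RNA from 167 ± 17.5 to 41.6 ± 0.518 at 3 h (-1.98 ± 0.17, adjusted p = 7.67e-13 by limma). Labelled BRAF, a MAP kinase kinase kinase, rose from 119 ± 45.6 to 213 ± 23.3 at 3 h (0.83 ± 0.17, adjusted p = 0.000377 by limma). Labelled RPS6KA3, a kinase downstream of ERK, rose from 138 ± 17.3 to 237 ± 35.9 (0.78 ± 0.14, adjusted p = 2.12e-05 by limma). Of 9 stress MAP kinase genes 0 were called at 1 h in either kind of RNA. At 4 h 3 were higher and 2 lower in total RNA, with 2 higher and 1 lower in labelled RNA. The shares of all genes given for the ERK cascade hold here too. At 2 h 2 were higher and 0 lower in total RNA, and 2 higher and 1 lower in labelled RNA, and at 3 h 4 and 2, and 3 and 2. Labelled MAP2K6, an activator of p38, fell from 31.5 ± 2.35 to 3.99 ± 1.09 at 3 h (-2.70 ± 0.29, adjusted p = 2.48e-10 by limma). Total MAP2K4, an activator of JNK, rose from 63.5 ± 2.87 to 116 ± 7.72 at 4 h (0.86 ± 0.09, adjusted p = 2.65e-07 by limma). Labelled MAPKAPK3, a target of p38, rose from 50.1 ± 16.0 to 90.2 ± 8.21 at 2 h (0.84 ± 0.19, adjusted p = 0.00123 by limma).

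Other brakes of ERK signalling were measured for 9 of 18 listed. Of these 9, 1 rose and 0 fell in total RNA at 1 h (0.788% and 0.147% of all genes). At 4 h 6 rose and 0 fell (21.4% and 14.5%), with a median of 0.40 against 0.02 for all genes. In labelled RNA 5 rose at 1 h (4.2% of all genes) and 6 at 4 h (13.7%), and 0 fell at these hours (2.06% and 13.8%). At 2 h 6 rose and 0 fell in total RNA (9.71% and 3.58% of all genes), and 5 rose and 1 fell in labelled RNA (12.3% and 9.26%). At 3 h 6 rose and 1 fell in total RNA (18.9% and 10.9% of all genes), and 4 rose and 1 fell in labelled RNA (13.8% and 11.4%). The gene that fell was SPRY1, another Sprouty, named here after its values were seen. It went from 34.9 ± 6.27 to 15.1 ± 4.32 in labelled RNA at 3 h (-1.16 ± 0.26, adjusted p = 0.000552 by limma) and from 8.36 ± 0.558 to 5.07 ± 1.67 in total RNA (-0.62 ± 0.18, adjusted p = 0.0115 by limma). When only the groups compared were fitted, 2 brakes were called higher at 1 h in total RNA and 2 in labelled RNA, and with a constant prior variance 3 in labelled RNA. SPRY2, a Sprouty inhibitor of receptor signalling to RAS, rose in total RNA from 6.00 ± 0.199 to 33.5 ± 2.54 at 2 h (2.30 ± 0.13, adjusted p = 1.16e-10 by limma), the hour at which DUSP2 was highest. SPRED1, a related inhibitor of RAF activation, rose in labelled RNA from 39.7 ± 12.4 to 203 ± 25.2 at 3 h (2.33 ± 0.17, adjusted p = 6.39e-15 by limma). Its total value was 97.2 ± 7.14 at 3 h and 104 ± 9.76 at 4 h. RASAL3, a RAS GTPase activating protein, rose in labelled RNA from 2.97 ± 1.20 to 17.0 ± 6.74 at 4 h (2.18 ± 0.30, adjusted p = 2.26e-07 by limma).

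Immediate early genes that respond to ERK and SRF were measured for 10 of 29 listed, a list also drawn up with earlier results known. In total RNA 6 rose and 0 fell at 1 h (0.788% and 0.147% of all genes), and 7 rose and 1 fell at 4 h (21.4% and 14.5%). The medians were 0.62 and 0.88. In labelled RNA 6 rose and 0 fell at 1 h (4.2% and 2.06% of all genes), and 4 rose and 4 fell at 4 h (13.7% and 13.8%). At 2 h 8 rose and 1 fell in total RNA (9.71% and 3.58% of all genes), and 6 rose and 2 fell in labelled RNA (12.3% and 9.26%). At 3 h the counts were 8 and 1 (18.9% and 10.9%), and 5 and 2 (13.8% and 11.4%). With quantile normalisation 1 fell in labelled RNA at 1 h. The 4 that fell in labelled RNA at 4 h were MYC (-2.18), FOSL2 (-1.27), SRF (-1.22) and KLF6 (-0.73), named here after their values were seen. MYC was also the gene that fell in total RNA at 4 h (-1.82). JUNB, an AP-1 subunit, had its largest change at 1 h, in total RNA from 9.40 ± 2.04 to 83.9 ± 15.0 (3.03 ± 0.14, adjusted p = 2.52e-11 by limma). KLF10 had its largest at 2 h in total RNA (5.14 ± 0.19, adjusted p = 8.87e-12 by limma). IER3, a regulator of survival and ERK signalling, had its largest at 3 h, in labelled RNA from 10.6 ± 4.23 to 761 ± 154 (6.04 ± 0.19, adjusted p = 3.39e-19 by limma). DUSP2 was highest at the hour of the largest KLF10 change, and DUSP5 at that of IER3.

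**Figure D5:**
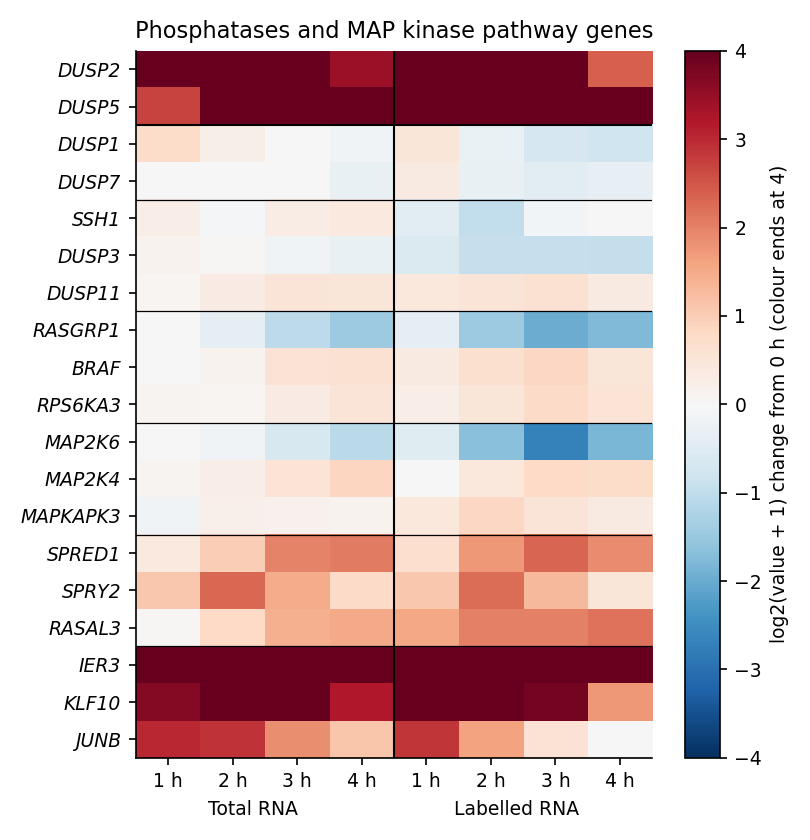
Log2(value + 1) change from unactivated cells (colour, which ends at 4 in either direction) at 1 to 4 h in total RNA (left 4 columns) and labelled RNA (right 4 columns). Genes are DUSP2 and DUSP5, then DUSP1 and DUSP7, and then the 3 genes with the largest called changes of each other list, between lines. DUSP1 and DUSP7 stay pale, and DUSP1 lay between -0.79 (labelled, 4 h) and 0.74 (total, 1 h).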

How the data were processed

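TopHat2, HTSeq and edgeR were used by the authors, and hg19 was their build, per the submitters' processing notes. The deposited table gives group means and SDs of a normalised signal, per the file headers, and no single samples. How labelled and total values were scaled to each other is not stated in the labels. The deposited table also holds a mean RPKM, decay rates on a natural log scale, their T scores, and LOD scores and calls of HuR binding, per the file headers, which do not say how the HuR columns were made.

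Group means were taken as log2(mean + 1), and SDs were carried to that scale to first order. For tests across all 7485 genes, limma 3.58.1 in R 4.3.3 moderated the variance of total or of labelled samples, each over 5 groups with 9 degrees of freedom, with a mean trend and robust option. P-values were adjusted by Benjamini-Hochberg at 0.05. Total and labelled samples of one culture were treated as independent in SEs of their difference. 3' untranslated regions came from the transcript with the longest coding sequence in GENCODE 29, and lengths for values per kb from the same transcripts. These references are on GRCh38, and the table was used without coordinates. Alternatives were pseudocounts of 0.5 and 5, a mean of at least 5, median centring, quantile normalisation, only the groups compared, a constant prior variance, and either value at 1 h alone. The genes and lists were chosen with earlier results of these data known. Named in the text were all measured typical phosphatases, the 3 called genes with the largest changes of each other list, and the 5 genes most like each phosphatase by Pearson r among those with a total RNA change of at least 1.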

Additional observations from a re-analysis of the deposited data

How the results depend on the processing

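No alternative turned the direction of any value of DUSP2 or DUSP5. Of 92 alternative values of their changes and labelled-to-total differences, 81 moved by less than 1 SD between samples. With a pseudocount of 5, total DUSP2 differed from unactivated cells by 5.28 at 2 h and 4.58 at 3 h. The same setting gave total DUSP5 1.92, 5.08, 6.02 and 4.94 at 1, 2, 3 and 4 h, and labelled DUSP5 3.39, 6.33, 6.77 and 5.14. The sizes for this low starting gene therefore depend on that choice, as does its place above DUSP2 at 2 h in total RNA. Median centring put labelled against total DUSP5 at 4 h at 0.27. With either value at 1 h alone, total DUSP2 ranged from 4.52 to 4.84, labelled DUSP2 from 4.73 to 4.89, total DUSP5 from 2.52 to 2.86 and labelled DUSP5 from 4.05 to 4.21. Leaving out a sample at other hours was not run, because single values are not in the table. Of the 5 genes most like DUSP2, 3 were shared with Spearman rho and 3 with total RNA alone; for DUSP5, total RNA alone shared 1. When only the groups compared were fitted, limma called 161 in place of 70 genes in total RNA at 1 h and 228 in place of 468 in labelled RNA. A constant prior variance gave 291 there. Quantile normalisation called 1 pathway gene lower in labelled RNA at 1 h in place of 0. No paired analysis was possible because the table gives group means and SDs and no value for a single replicate. The 159 alternative tests covered DUSP1, DUSP7 and the 3 called genes with the largest changes of each other list. Of these 157 kept their side of the threshold, all but those of DUSP1 and DUSP11 given above. NRAS, SPRY1, MYC, FOSL2, SRF and KLF6 were not among them. NRAS was not called in labelled RNA at 1 h with quantile normalisation or with only the groups compared. Depth is known for total RNA at 1 h alone.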
